A study of Mus musculus with 6 samples.

Results

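The data compared beta cells that lack FoxO1 at 12 and at 3 months of age, in mice that had never been pregnant. Of 23087 genes listed at 1 place in the genome, 8209 were compared. These were above 0 FPKM in both libraries and reached 5 FPKM in at least 1 of them. FPKM is the number of fragments of a gene scaled by its transcript length and by the number mapped in the library. Another 7243 genes had a 0 in at least 1 of both libraries, and 13 of these reached 5 FPKM in the other. The remaining 7635 genes were above 0 but under 5 FPKM in both. Just inside that limit lay Tmem175 with a higher value of 5.002 FPKM, and just outside it Hamp with 4.9998 FPKM.

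All 6 libraries of the study were poly-A RNA of beta cells that were sorted from islets by flow cytometry; the mice were female, on standard chow and with a mixed 129J-C57BL/6 strain background. The knockout mice (IKO) carried floxed Foxo1 alleles and a Cre recombinase under the rat insulin promoter (RIP-Cre), so the gene is cut where that promoter is active. The wild type (WT) mice served as the other genotype, and the labels do not say whether they carried the Cre transgene or the floxed alleles. Each genotype was sampled at 3 months nulliparous, at 12 months nulliparous, and at 12 months after 3 pregnancies (multiparous). The multiparous WT library was titled NGT and the multiparous IKO library DM. Each of the 6 groups held 1 library, and the labels give no number of animals per library. No difference could therefore be tested against replicate error, and every value is a size measured once. Differences are given as the log2 ratio of FPKM + 1, on which 1 stands for 2-fold. Adding 1 understates the ratio of genes with low values. No read counts were used here, and library depth is therefore unknown.

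FoxO1 is a transcription factor that insulin signalling drives out of the nucleus. In mouse beta cells it is known for keeping cells in a mature, insulin-producing state under metabolic stress. Its loss has been linked to dedifferentiation, in which beta cells lose their mature programme and express genes of other endocrine or progenitor states. Ageing beta cells are known for low proliferation and for stress responses. One such response is the integrated stress response, in which the factor ATF4 activates genes of amino acid synthesis, transport and tRNA charging.

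Foxo1 (chr3:52268337-52350109 in mm10) was listed at 0.410 FPKM in the 3-month IKO library and at 0.410 FPKM in the 12-month nulliparous IKO library. The multiparous IKO library had 0.656 FPKM. The WT libraries had 5.67 FPKM at 3 months, 7.62 FPKM at 12 months nulliparous and 8.93 FPKM at 12 months multiparous. All 3 IKO libraries were therefore far below all 3 WT libraries, and the low level was the same at both ages. The sorted cells carried beta cell genes at high levels, such as G6pc2 at 785 FPKM, Ucn3 at 182 FPKM and Nkx6-1 at 92.3 FPKM in the 3-month IKO library. Summed FPKM over genes at 1 place ran from 268006 to 316023 across libraries, with the nulliparous 12-month WT library highest. Ins1, Ins2 and Iapp, which beta cells transcribe at very high levels, had a listed value of 0 in every library and carry no information here.

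The 12-month and the 3-month IKO libraries were close to each other. The median size of the log2 ratio was 0.0903 over the 8209 genes, and the median ratio was 0.022. At 2-fold, 12 genes (0.146% of those compared) were higher at 12 months and 9 genes (0.11%) were lower. At 1.5-fold, 58 genes (0.707%) were higher and 42 genes (0.512%) lower. Just past the 2-fold limit lay Sfrp5 at 1.0 and Atp6v0c-ps2 at -1.03. Just short of it lay Hist1h2bk at 0.99 and Snora70 at -0.96. For scale, the IKO and WT libraries of the same age, 3 months, had a median size of 0.0497, with 4 genes (0.0493%) higher and 5 genes (0.0616%) lower in IKO at 2-fold. The nulliparous WT libraries of 12 and 3 months were much further apart, with a median size of 0.278, 292 genes (3.51%) higher and 56 genes (0.674%) lower. The nulliparous 12-month WT library stood apart from the other 5. The multiparous WT library against the 3-month WT library had a median size of 0.0908, with 34 genes (0.414%) higher and 20 genes (0.244%) lower.

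**Figure D1:**
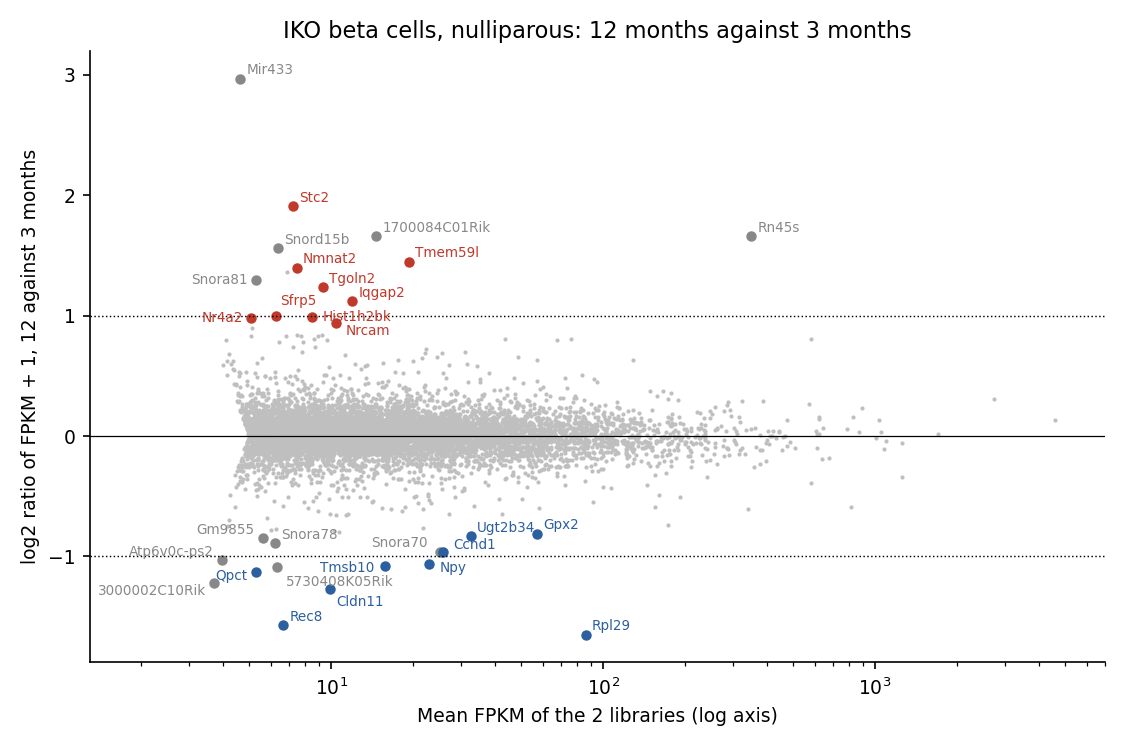
Each point is 1 of the 8209 genes, by mean FPKM of both IKO libraries (log axis) and log2 ratio of FPKM + 1 at 12 against 3 months; dotted lines mark 2-fold. Names are given from among the 15 highest (red) and the 15 lowest (blue) ratios, with small RNAs, ribosomal RNA, pseudogenes and predicted genes in dark grey, and nearly all genes lie within 1.5-fold of no difference.

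Stc2 (chr11:31359441-31370061), which encodes stanniocalcin 2, a secreted inhibitor of the proteases that free insulin-like growth factors, had 2.46 FPKM at 3 months and 12.0 FPKM at 12 months in IKO, a log2 ratio of 1.91. The WT libraries had 3.94 FPKM at 3 months, 4.19 FPKM at 12 months nulliparous and 3.93 FPKM multiparous, and the multiparous IKO library had 1.24 FPKM. Only the nulliparous 12-month IKO library was high, and the other IKO libraries held the lowest values of the 6. Pappa2, which encodes one of these proteases, had 7.60 FPKM at 3 months and 11.3 FPKM at 12 months in IKO (log2 ratio 0.51). Pappa2 had 9.82 FPKM in 3-month WT, above 3-month IKO, and 5.43 FPKM in nulliparous 12-month WT. Its multiparous libraries were at 2.46 FPKM in WT and 2.85 FPKM in IKO. Both Stc2 and Pappa2 had their highest value of the 6 libraries in nulliparous 12-month IKO cells.

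Tmem59l, a gene for a transmembrane protein, was at 9.89 and 28.7 FPKM in the 3-month and 12-month IKO libraries (log2 ratio 1.45). Its WT values were 8.96, 26.8 and 19.4 FPKM in the order 3 months, 12 months nulliparous and 12 months multiparous, and multiparous IKO had 27.7 FPKM. Nmnat2, whose product makes NAD and preserves axons, was at 3.66 and 11.3 FPKM (log2 ratio 1.40), with 2.97, 5.06 and 7.82 FPKM in the WT libraries and 8.29 FPKM in multiparous IKO. For both, the groups by age did not overlap, and the nulliparous IKO library of 12 months was highest of all 6.

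Iqgap2, Sfrp5 and Tgoln2, also past 2-fold upward, did not follow age in every library. Iqgap2, which encodes a scaffold protein of the cytoskeleton, had 7.15 FPKM at 3 months and 16.7 FPKM at 12 months (log2 ratio 1.12), but 7.12 FPKM in multiparous IKO cells. Sfrp5, which encodes a secreted inhibitor of Wnt ligands, had 3.85 and 8.72 FPKM in IKO and 2.32 and 9.49 FPKM in the nulliparous WT libraries. The multiparous libraries had 0.505 FPKM in WT and 1.46 FPKM in IKO, so Sfrp5 was high in the nulliparous 12-month libraries of both genotypes and low in both multiparous ones. Tgoln2, a gene for a protein of the trans-Golgi network, was at 5.13 and 13.5 FPKM in IKO (log2 ratio 1.24), but at 1.99 FPKM in multiparous IKO. It has a close copy, so its value depends on how shared reads were divided. Just under 2-fold lay Nr4a2, an orphan nuclear receptor gene, at 3.10 and 7.06 FPKM (log2 ratio 0.98) and Nrcam, a gene for a neuronal adhesion molecule, at 6.80 and 13.9 FPKM (log2 ratio 0.94).

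Also past 2-fold upward were small RNAs, ribosomal RNA and a predicted gene, 1700084C01Rik (log2 ratio 1.66). Rn45s, the ribosomal RNA precursor, had 167 FPKM at 3 months and 532 FPKM at 12 months in IKO, and 150 and 440 FPKM in WT, with 170 FPKM in multiparous WT and 155 FPKM in multiparous IKO. Lars2, a mitochondrial tRNA charging enzyme gene, had 31.3 and 55.7 FPKM in IKO and 29.3 and 55.4 FPKM in WT. Its multiparous libraries were at 29.4 FPKM in WT and 24.7 FPKM in IKO. Rn45s and Lars2 were high in both nulliparous 12-month libraries and in no other. Poly-A selection removes ribosomal RNA, and the part of residual ribosomal RNA in the Lars2 value was not tested. Mir433 (log2 ratio 2.97), Snord15b (1.56) and Snora81 (1.3) are small RNAs, whose FPKM in a poly-A library rest on very short lengths. Mir433 was listed at 0 in 4 of the 6 libraries.

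Downward, the genes with established symbols past 2-fold were Rpl29, Rec8, Cldn11, Qpct, Tmsb10 and Npy. Qpct, which encodes the enzyme that cyclises the N-terminal glutamine of peptide hormones, had 7.60 FPKM at 3 months and 2.93 FPKM at 12 months in IKO, a log2 ratio of -1.13. In WT it had 7.99 FPKM at 3 months, 2.18 FPKM at 12 months nulliparous and 2.63 FPKM multiparous, and multiparous IKO had 1.70 FPKM. Rec8, which encodes a meiotic cohesin subunit, had 10.4 and 2.84 FPKM in IKO (log2 ratio -1.57), 12.7, 7.47 and 4.35 FPKM in WT by stage, and 3.31 FPKM in multiparous IKO. Tmsb10, a gene for an actin-binding thymosin, had 21.7 and 9.73 FPKM (log2 ratio -1.08), with 23.7 FPKM in 3-month WT and 13.3 to 13.8 FPKM in the other 12-month libraries. For these 3 genes, all 4 libraries of 12 months lay below both of 3 months.

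Cldn11, a tight junction gene, had 14.3 FPKM at 3 months and 5.37 FPKM at 12 months in IKO (log2 ratio -1.27), and 8.56 and 7.13 FPKM in nulliparous WT. Rpl29, a gene of the large ribosomal subunit, had 131 and 41.2 FPKM in IKO (log2 ratio -1.65), 126 and 101 FPKM in nulliparous WT, 56.4 FPKM in multiparous WT and 43.8 FPKM in multiparous IKO. Ribosomal protein genes have many processed copies, so the Rpl29 value is uncertain. Both genes were again lower in every 12-month library than in either 3-month library. Npy, which encodes neuropeptide Y and is high in immature beta cells, had 31.3 and 14.5 FPKM in IKO (log2 ratio -1.06). It did not follow age in WT, with 25.2 FPKM at 3 months, 48.3 FPKM at 12 months nulliparous and 22.1 FPKM multiparous.

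Between 1.5-fold and 2-fold lay further genes whose values separated the ages in every library, and some of them are given here. Ccnd1 (chr7:144929931-144939925), which encodes cyclin D1, a driver of entry into the cell cycle, had 34.4 FPKM at 3 months and 17.2 FPKM at 12 months in IKO, a log2 ratio of -0.96. In WT it had 29.5, 15.03 and 11.3 FPKM at 3 months, 12 months nulliparous and 12 months multiparous, and multiparous IKO had 13.8 FPKM. Every 12-month library had less Ccnd1 than either 3-month library. Gpx2, a glutathione peroxidase gene, had 72.9 and 41.2 FPKM in IKO (log2 ratio -0.81), with 76.7, 51.2 and 30.5 FPKM in WT and 29.2 FPKM in multiparous IKO. Ugt2b34, a glucuronosyltransferase gene, had 42 and 23.1 FPKM in IKO (log2 ratio -0.83), with 42.1, 13.8 and 11.3 FPKM in WT and 10.2 FPKM in multiparous IKO.

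Upward, Nupr1, which encodes a stress-induced regulator of transcription, had 422 FPKM at 3 months and 739 FPKM at 12 months in IKO, a log2 ratio of 0.81. It had 379, 607 and 810 FPKM in the WT libraries in the same order of stages and 885 FPKM in multiparous IKO. Fut1, a fucosyltransferase gene, had 5.27 and 10.1 FPKM (log2 ratio 0.83), with 5.41 FPKM in 3-month WT and 9.88 to 12.2 FPKM in the other 12-month libraries. Agt, which encodes angiotensinogen, had 8.43 and 14.0 FPKM (log2 ratio 0.67), with 6.48, 15.8 and 18.5 FPKM in WT and 18.7 FPKM in multiparous IKO. Adm2, a gene for a peptide of the calcitonin family, had 16.6 and 27.95 FPKM (log2 ratio 0.72), with 18.4 FPKM in 3-month WT and 29.4 to 37.6 FPKM in the other 12-month libraries. For all 4, no 12-month library overlapped the 3-month range.

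**Figure D2:**
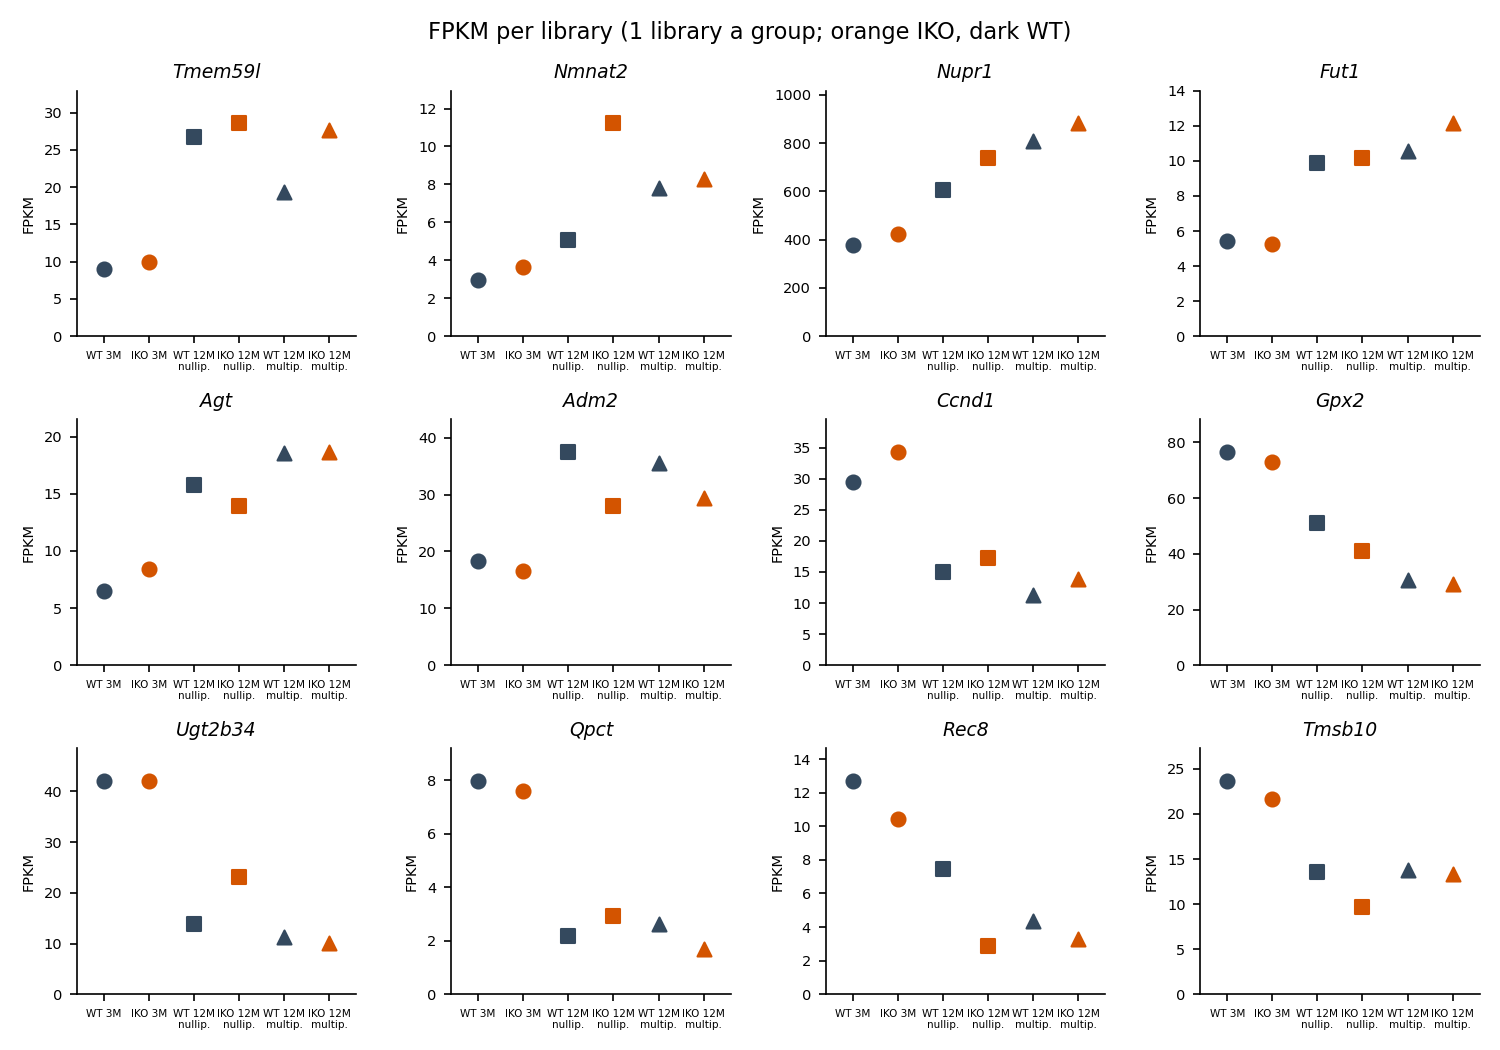
FPKM of 12 genes in each of the 6 libraries (1 point a library, linear axes from 0; orange IKO, dark WT; circles 3 months, squares 12 months nulliparous, triangles 12 months multiparous). The 12 genes were picked from those separated by age. In each panel the 4 libraries of 12 months therefore lie on 1 side of both libraries of 3 months. For Ccnd1 they held 11.3 to 17.2 FPKM, against 29.5 and 34.4 FPKM.

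Across all genes compared, 742 of 8209 (9.04%) were higher in all 4 libraries of 12 months than in both of 3 months, and 528 (6.43%) were lower in all 4. Of the 58 genes 1.5-fold higher in the nulliparous IKO pair, 22 (37.9%) were separated this way, as were 18 of the 42 lower genes (42.9%). Of those past 2-fold, 3 of 12 (25%) were separated upward and 6 of 9 (66.7%) downward. Both IKO libraries enter this count, and their order is fixed by the choice of genes, so these shares are not independent of it.

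The WT libraries share none with the nulliparous IKO pair, and show how far the same genes differed by age with FoxO1 present. Of the 50 genes 1.5-fold higher in IKO that could be compared in the multiparous WT pair, 13 (26%) were also past 1.5-fold upward there, against 1.19% of all genes, and 41 (82%) lay above 0, against 59.1%. These 13 are 13.5% of the 96 genes past 1.5-fold in that WT pair. Of the 41 lower genes, 15 (36.6%) were past 1.5-fold downward in WT, against 0.904% of all genes, and 32 (78%) lay below 0, against 40.9%. These 15 are 20.5% of the 73 WT genes. That WT library differs from the 3-month one in parity as well as in age, and the effects of parity and age cannot be told apart in it.

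In the nulliparous WT pair, 16 of 48 higher genes (33.3%) were past 1.5-fold upward, against 10.5% of all genes, and 16 of 40 lower genes (40%) downward, against 6.29%. They are 1.89% and 3.15% of the WT genes past that limit, since the list of the library that stands apart is long. In the same direction lay 62.5% of the higher genes, against 48% of all genes, and 65% of the lower genes, against 52%. At 2-fold, 4 of 10 higher genes, with Sfrp5, Rn45s and Tmem59l among them, were past 2-fold in nulliparous WT, against 3.18% of all genes, and 1 of 8 lower genes (Qpct), against 0.644%. In multiparous WT these were 3 of 9, with Nmnat2 and Tmem59l among them, against 0.31%, and 4 of 8 (Rec8, Rpl29, Qpct and Cldn11), against 0.21%. Across genes the log2 ratios of the nulliparous IKO pair had a Pearson r of 0.316 with those of the multiparous WT pair (Spearman rho 0.27, 8077 genes) and of -0.0741 with those of the nulliparous WT pair (rho -0.127, 8072 genes). Genes are not independent replicates, and within each pair all share 2 libraries. The ratios followed transcript length and GC content in opposite directions, with rho of 0.26 and -0.2 in the nulliparous IKO pair and of -0.3 and 0.24 in the nulliparous WT pair. With both trends taken out, r was 0.304 with the multiparous and 0.0178 with the nulliparous WT pair.

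**Figure D3:**
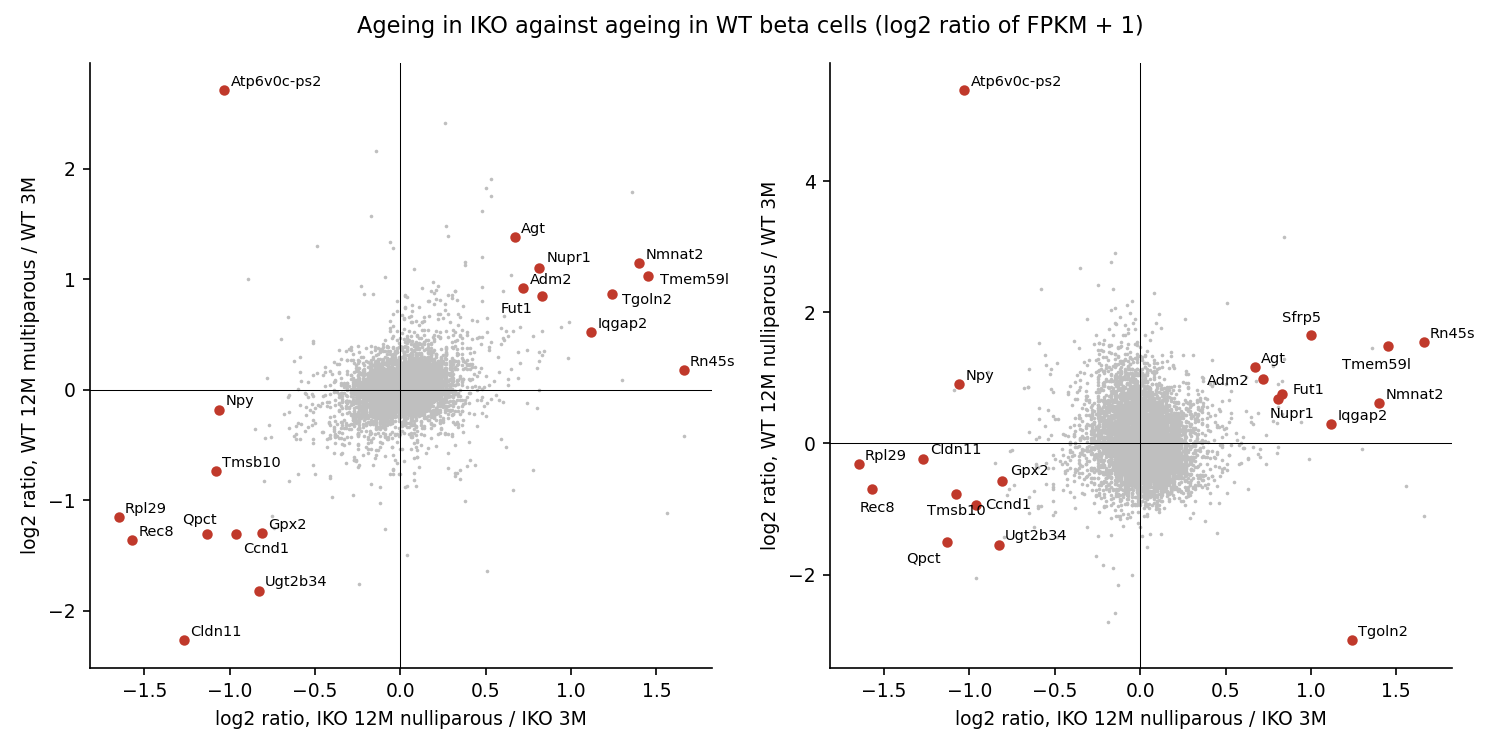
Log2 ratios of FPKM + 1 at 12 against 3 months, for each gene, in nulliparous IKO cells (horizontal axis of both panels) against multiparous WT (left) and nulliparous WT (right), on different vertical scales. Named genes past 1.5-fold in IKO such as Tmem59l, Qpct and Ccnd1 lie in the same direction in both panels, and the cloud of all genes is far taller in the right panel (median size 0.278 against 0.0908).

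Among pathways, the genes of the ATF4 amino acid response stood together on 1 side. Of 28 genes listed, 26 were compared, and all 26 were above 0 in the nulliparous IKO pair, against 57.1% of all genes. Slc7a11 and Fgf21 stayed under 5 FPKM. The median log2 ratio of the 26 was 0.27, against 0.02 over all genes, with a range from 0.07 to 1.91. Upward, 1 gene was past 2-fold (0.146% of all genes) and 3 past 1.5-fold (0.707% of all genes). The differences were therefore small for nearly every gene, and it is their direction that was shared. Without the 3 genes of largest ratio, Stc2, Nupr1 and Ppp1r15a, the median of the others was 0.23. The list was drawn up with earlier results of these data known.

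The promoters of several of these genes hold the composite element that C/EBP and ATF factors bind. The letters TGATGNAA, searched on both strands from 250 bases before to 50 after the start, were in 7 of the 24 ATF4-list promoters at hand (29.2%) and in 124 of 6239 promoters of all genes compared (1.99%). The FoxO motif GTAAACA was in 0 of the 24 and in 147 of the 6239 (2.36%). It was in 2 of 43 promoters of genes 1.5-fold higher (4.65%) and in 3 of 22 of genes 1.5-fold lower (13.6%), where TGATGNAA was in 3 (6.98%) and 1 (4.55%). A match describes the letters only. The ATF4 list was made of genes of that response, so its share with the element is not independent of the choice of list. That share is no result about age. The windows below are of 4 genes whose levels are given next, from RefSeq on build GRCm38.p6, read 5′ to 3′ on the strand of the gene, with the element in capitals. They show that Nupr1, Chac1 and Trib3 carry it in reverse orientation and Asns in forward orientation, at 110, 193 and 23 bases before the start for Nupr1, Chac1 and Asns and 14 bases after it for Trib3.
Nupr1, chr7:126625553-126625600, minus strand: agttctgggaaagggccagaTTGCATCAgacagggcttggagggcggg
Chac1, chr2:119351029-119351076, plus strand: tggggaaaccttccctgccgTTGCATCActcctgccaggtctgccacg
Trib3, chr2:152344033-152344066, minus strand: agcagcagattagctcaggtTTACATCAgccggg
Asns, chr6:7693205-7693252, minus strand: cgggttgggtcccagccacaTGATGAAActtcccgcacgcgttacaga

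Among the regulators, Atf4 itself had 304 FPKM at 3 months and 332 FPKM at 12 months in IKO, a log2 ratio of 0.12. Ddit3, which encodes the stress factor CHOP, had 129 and 168 FPKM (0.37), and 141, 100 and 170 FPKM in the WT libraries by stage. Ppp1r15a, whose product GADD34 ends the translation block of the stress response, had 48.9 and 86.1 FPKM (0.80), with 69.6 FPKM in 3-month WT and 43.5 FPKM in multiparous IKO. Trib3, a pseudokinase gene that ATF4 activates, had 47.8 and 66.1 FPKM (0.46), and Chac1, which encodes an enzyme that degrades glutathione, had 60.3 and 84.8 FPKM (0.48). For Ppp1r15a and Chac1, the nulliparous 12-month IKO library was the highest of all 6 and both other IKO libraries lay below 3-month WT.

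Among the enzymes, Psat1 of serine synthesis had 61.7 FPKM at 3 months and 77.6 FPKM at 12 months in IKO (log2 ratio 0.32), with 72.1 FPKM in 3-month WT. Phgdh, the first enzyme of that pathway, had 17.1 and 21.5 FPKM (0.31), and Asns, which makes asparagine, 174 and 186 FPKM (0.09). The tRNA charging enzymes Aars and Gars stood at 0.16 and 0.15, and the amino acid transporter gene Slc7a5 at 0.22. Sesn2, a stress-induced inhibitor of mTORC1, had 29.3 and 40.97 FPKM (0.47). Of the genes with a promoter window printed above, Nupr1 had the largest ratio (0.81) and Asns the smallest (0.09).

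The 3-month IKO library was low for these genes, which bears on the ratio. Its median log2 ratio to 3-month WT was -0.11 over the 25 genes compared, and 22 lay below 0, against 45.2% of all genes. This pair shares the 3-month IKO library with the ageing pair. Set against 3-month WT instead, 25 of 26 genes were above 0 in the nulliparous 12-month IKO library, against 61.4% of all genes. The medians were 0.15 and 0.03. That comparison keeps the 12-month library in which the 26 genes were high, so it is not independent of the ageing pair. Its 61.4% covers all genes, not only those above 0 in the ageing pair. Of the 3 IKO libraries the nulliparous 12-month one was highest for 23 of 26 genes, against 72.5% of the 4686 genes above 0 in the ageing pair. Of all 6 libraries it was highest for 14 of 26, against 35.2% of those genes. The order of both nulliparous IKO libraries is already given by the ratio, so only genes above 0 are set beside the counts of highest values. In the other ageing pairs the list lay near 0, with 12 of 25 genes above 0 and a median of -0.00 in nulliparous WT (49.2% of all genes above 0), 9 of 25 and -0.05 in multiparous WT (59.3%), and 9 of 25 and -0.06 in multiparous IKO (50.6%).

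**Figure D4:**
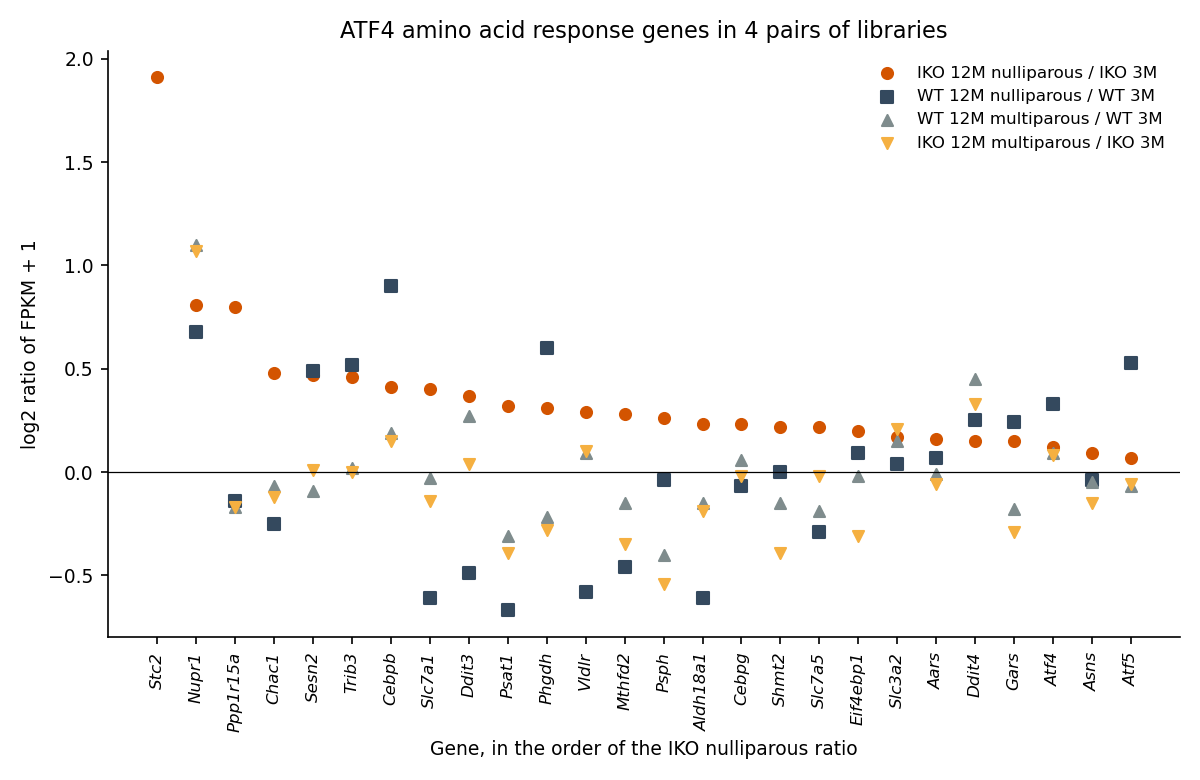
Log2 ratio of FPKM + 1 for each of the 26 ATF4 response genes, ordered by the nulliparous IKO ratio, in 4 pairs of 12-month against 3-month libraries (1 library a side; a gene is drawn where it was compared). The nulliparous IKO points run from 1.91 (Stc2) to 0.07 (Atf5) and all lie above 0, while the other 3 pairs scatter on both sides.

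Stress programmes other than that of ATF4 were mixed. The 30 endoplasmic reticulum chaperones and unfolded protein response genes had a median of 0.01, with 16 above 0, near the values over all genes, of which 57.1% were above 0 with a median of 0.02. Herpud1, which serves in degrading misfolded proteins, had 144 and 187 FPKM (0.37). In multiparous WT and multiparous IKO the medians of that list were 0.20 and 0.28. Of 19 immediate early genes, 16 were above 0 in the nulliparous IKO pair (57.1% of all genes) with a median of 0.19. They were led by Nr4a2 and by Atf3 with 3.37 and 6.76 FPKM (0.83). Immediate early genes were also mostly above 0 in nulliparous WT, with 12 of 17 and a median of 0.42 (49.2% of all genes). The multiparous pairs had 13 of 19 and 0.13 in WT (59.3%) and 18 of 18 and 0.29 in IKO (50.6%). Of 14 hypoxia response genes, 13 were above 0 in the nulliparous IKO pair (57.1% of all genes) with a median of 0.23. The 3-month IKO library was low for this list, with 12 of 14 genes below 3-month WT (45.2% of all genes). In the nulliparous WT pair, 7 of 14 were above 0 (49.2% of all genes) with a median of 0.02. In nulliparous IKO, P4ha2, a collagen prolyl hydroxylase gene, had 11.03 and 15.8 FPKM (0.48). Bnip3, a mitophagy receptor gene, had 36.2 and 47.6 FPKM (0.38). Both were higher in multiparous cells, with 23.8 and 22 FPKM for P4ha2 and 87.6 and 80.1 FPKM for Bnip3 in WT and IKO. Ldha, which encodes lactate dehydrogenase A and is normally kept low in beta cells, had 1.45 and 3.25 FPKM in the 3-month and 12-month nulliparous IKO libraries. It had 1.46 and 1.42 FPKM in nulliparous WT and 12.2 and 11.9 FPKM in multiparous WT and IKO.

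Genes of antigen presentation lay to the lower side. Of 15 compared, 12 were below 0 (42.9% of all genes), with a median of -0.26. Psmb10 and Psmb8, subunits of the immunoproteasome that cuts peptides for display, had 27.2 and 18.6 FPKM (-0.53) and 23.9 and 16.5 FPKM (-0.51). H2-D1, a class I heavy chain gene, had 270 and 213 FPKM (-0.34), while H2-K1, its close relative, had 258 and 298 FPKM (0.21). These genes share sequence, so the split between them is uncertain. Of 16 interferon-stimulated genes, 12 were below 0 (42.9% of all genes) with a median of -0.17. The 3-month IKO library was high for both lists, with 14 of 15 and 16 of 16 genes above 3-month WT (54.8% of all genes) and a median of 0.10 in each. In the nulliparous WT pair antigen presentation genes had a median of 0.45 and in the multiparous WT pair of 0.03.

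Housekeeping lists lay slightly low. Of 79 cytosolic ribosomal protein genes, 64 were below 0 with a median of -0.13, against 42.9% and 0.02 over all genes, and their ratios ran from -1.65 (Rpl29) to 0.81 (Rps18). Of 83 genes of the respiratory chain and ATP synthase, 65 were below 0 with a median of -0.06, against the same 42.9% and 0.02. In nulliparous WT the same lists had medians of 0.50 and 0.31. Transcripts of both lists are mostly short, and transcript length moved with the ratio in opposite directions in both pairs. With the trends with length and GC content taken out, the IKO medians were -0.10 and -0.04. The 3-month IKO library was high for both lists, with 61 of 79 and 68 of 83 genes above 3-month WT (54.8% of all genes). Their median log2 ratios to 3-month WT were 0.04 and 0.06.

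Of genes of mature beta cells, the 19 transcription factors compared had a median of -0.01, with 9 above 0, against 0.02 and 57.1% over all genes. None of the 19 was past 1.5-fold, a limit that 0.707% of all genes passed upward and 0.512% downward. Mafa, a factor of mature beta cells, had 70.8 FPKM at 3 months and 88.5 FPKM at 12 months (0.32), with 79.1, 102 and 46.7 FPKM in the WT libraries and 50.3 FPKM in multiparous IKO. Pdx1 stood at -0.01 and Nkx6-1 at 0.05. Mlxipl, which encodes the glucose-responsive factor ChREBP, had 82.7 and 62.2 FPKM (-0.41). Of 20 glucose sensing and maturity genes, 15 were above 0 (57.1% of all genes) with a median of 0.14, and Npy, at -1.06, had the largest ratio in size. The nulliparous WT pair had 9 of 20 above 0 (49.2% of all genes) and a median of -0.01. Both multiparous pairs had 4 of 20 above 0, with medians of -0.18 in WT (59.3% of all genes) and -0.12 in IKO (50.6%). In nulliparous IKO, Slc2a2, the glucose transporter GLUT2, had 63.1 and 78.8 FPKM (0.32) and G6pc2, a glucose-6-phosphatase gene, 785 and 877 FPKM (0.16). Ucn3, a peptide of mature beta cells, had 182 and 177 FPKM (-0.04). Slc30a8, the zinc transporter of insulin granules, had 169 and 208 FPKM (0.30). None of the 22 genes normally silenced in beta cells reached 5 FPKM in either library.

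Of genes linked to dedifferentiation, 3 of 10 could be compared. Gc, which encodes the vitamin D binding protein, had 37.5 FPKM at 3 months and 59.7 FPKM at 12 months in IKO (log2 ratio 0.66). In WT it had 34.3, 32.9 and 17.7 FPKM by stage, and 40.0 FPKM in multiparous IKO. Serpina7, the thyroxine-binding globulin gene, had 27.2 and 41.3 FPKM (0.58), with 26.8, 21.2 and 25.1 FPKM in WT and 36.3 FPKM in multiparous IKO. Hes1, a Notch target gene, lay to the other side with 5.41 and 4.77 FPKM (-0.15). For Gc and Serpina7 the nulliparous 12-month IKO library was highest and the multiparous IKO library second. Aldh1a3, a retinaldehyde dehydrogenase gene that marks dedifferentiated beta cells, had 2.18 and 3.31 FPKM, under the limit, with 5.70 FPKM in multiparous IKO and 0.348 to 0.776 FPKM in WT. All 3 IKO libraries exceeded all 3 WT libraries. Neurog3, which encodes a factor of endocrine progenitors, had 0.280 and 0.415 FPKM.

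Proliferation genes were mostly too low to compare, with 6 of 44 past the limit. Besides Ccnd1, its relatives Ccnd2 and Ccnd3 stood at 0.25 and 0.18, so the D-type cyclins lay on both sides of 0. Mki67, a marker of dividing cells, was at 0.101 and 0.0880 FPKM and Ezh2, a histone methyltransferase gene of young beta cells, at 2.44 and 1.60 FPKM. Cdkn2a, the p16 locus, was at 0.366 and 0.326 FPKM. Cdkn1a, which encodes the cell cycle inhibitor p21, had 30.9 and 44.8 FPKM (0.52), with 35.2, 31.1 and 45.6 FPKM in WT and 41.04 FPKM in multiparous IKO. Gdf15, a secreted stress cytokine gene, had 6.26 and 11.1 FPKM (0.74).

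Of 13 FoxO factors and targets compared, 12 were above 0 with a median of 0.17, against 57.1% and 0.02 over all genes. Foxo3, a factor of the same family, had 4.30 and 5.72 FPKM (0.34) and Foxo6 5.84 and 5.89 FPKM (0.01). Irs2, an insulin receptor substrate gene, had 5.96 and 9.18 FPKM (0.55), and Txnip, a glucose-induced inhibitor of thioredoxin, 15.5 and 24.4 FPKM (0.62). Txnip was also higher at 12 months in nulliparous WT, with 15.9 and 33.0 FPKM. Igf1r, the receptor for insulin-like growth factors, stood at 0.18. With the trends with length and GC content taken out, the nulliparous IKO median of the FoxO list was 0.12. In the nulliparous WT pair, 7 of 12 genes of that list were above 0 (49.2% of all genes) with a median of 0.12. The multiparous pairs had 10 of 13 and 0.07 in WT (59.3%) and 7 of 13 and 0.05 in IKO (50.6%).

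**Figure D5:**
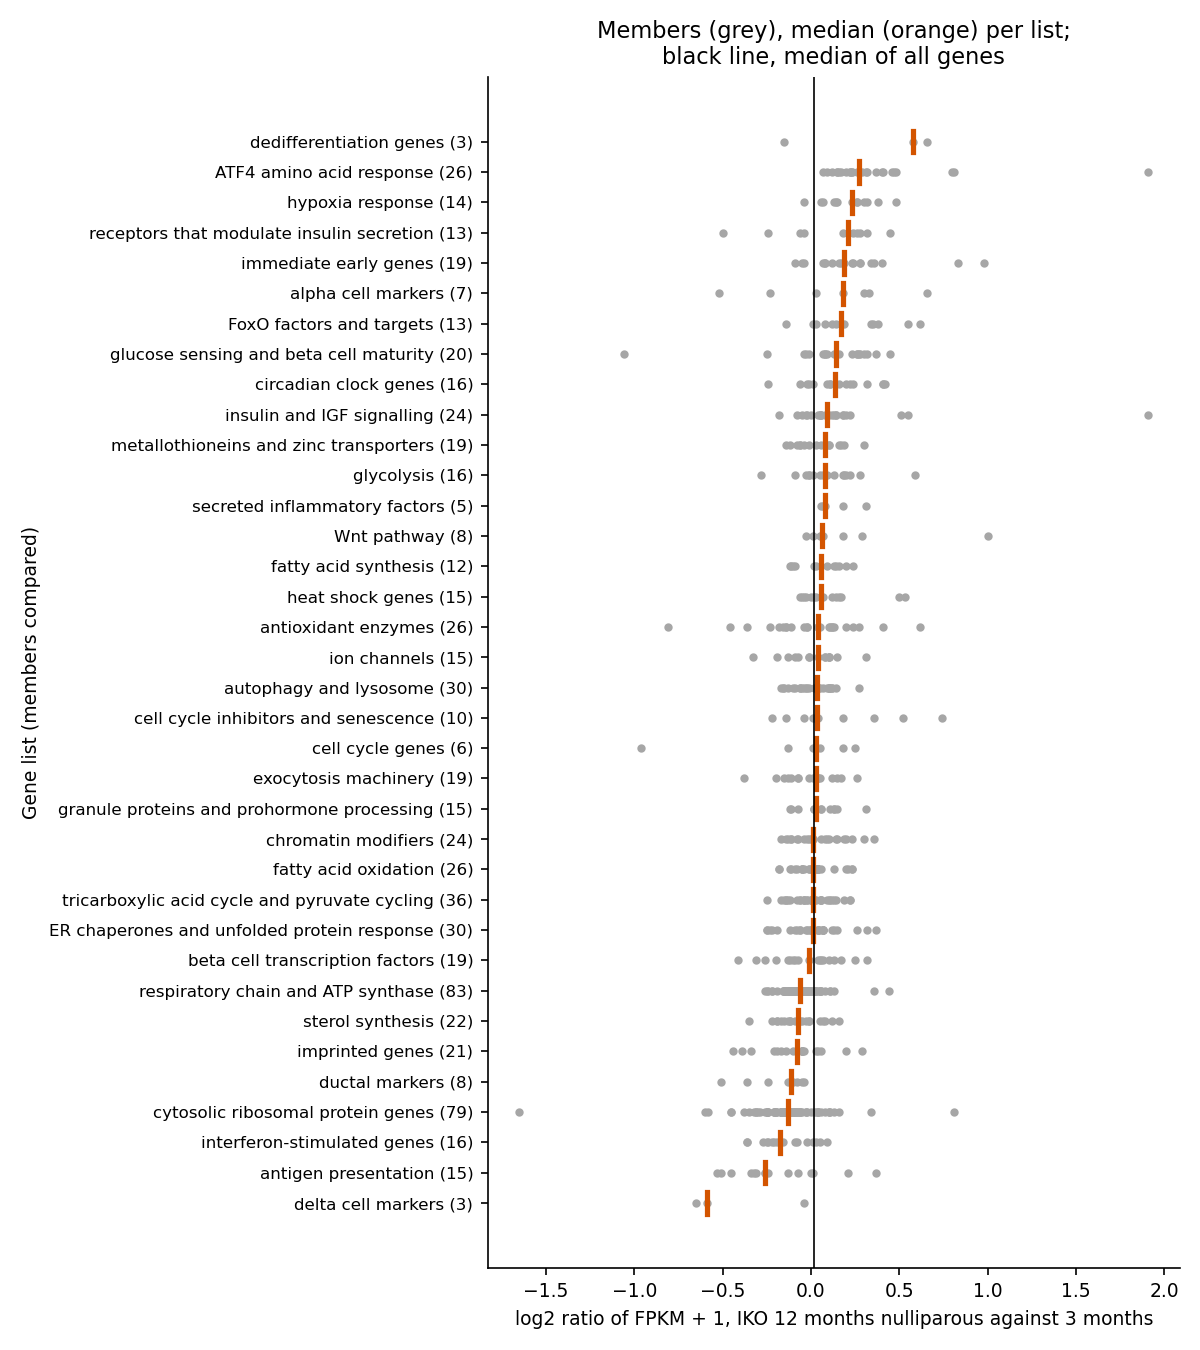
Log2 ratio of FPKM + 1 in the nulliparous IKO pair for the members of each list (grey points; number compared in brackets; lists under 3 members left out), with the list's median (orange) and the median of all 8209 genes (black line, 0.02). The ATF4 response lies wholly to the right of 0, antigen presentation mostly to the left, and beta cell transcription factors lie around it.

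Sorted cells held RNA of genes that mark other islet cells, and its level differed between libraries. Sst, the delta cell hormone gene, had 187 FPKM at 3 months and 124 FPKM at 12 months in IKO (-0.59), Rbp4, another delta cell gene, 12.3 and 7.45 FPKM (-0.65), and Gcg, the alpha cell hormone gene, 410 and 348 FPKM (-0.23). Gcg differed in direction from most alpha cell markers, of which 5 of 7 compared lay above 0 with a median of 0.18 (57.1% and 0.02 over all genes). In bulk samples fewer cells of a type and less RNA per cell cannot be told apart. Which cells this RNA came from, beta cells or others, cannot be told either. Summed FPKM of the 8 delta cell markers ran from 247.2 at 3 months to 177.2 at 12 months in IKO, and that of the 14 alpha cell markers from 899.3 to 901.2, with Pgr15l at 0. The 5 PP and epsilon cell markers summed to 478.9 and 431.5 FPKM. The nulliparous 12-month WT library was high for all 3, at 616, 1536 and 1536 FPKM. Gc, described above, is also an alpha cell gene, and in the nulliparous IKO pair it was higher while Gcg was lower.

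Markers of cells outside the islet were low, apart from the ductal markers. The 29 acinar markers summed to 44.78 and 65.34 FPKM in the IKO libraries and to 129.9 FPKM in nulliparous 12-month WT, with Prss1 and Ptf1a at 0. The acinar gene Ctrb1 was among the 1.5-fold higher genes, at 5.09 and 9.89 FPKM (0.84), and stood at 29.4 FPKM in that WT library. Endothelial (14 genes), stromal (14) and erythroid (5) markers summed to at most 6.101 FPKM in the IKO pair, and Schwann markers (8) to 4.406 and 4.076 FPKM with Sox10, Gfap and Cdh19 at 0. The 21 immune markers summed to 28.5 and 29.08 FPKM, and the 16 ductal markers, which beta cells partly share, to 933.7 and 808.2 FPKM. Of the ductal markers 8 were compared, and all 8 lay below 0 (42.9% of all genes) with a median of -0.12. The part of these cells in the ratios above was not tested.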

How the data were processed

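Poly-A RNA of sorted beta cells was sequenced as directional paired ends of 100 bases, per the labels' protocols, in 6 libraries of 1 group each. The authors deposited FPKM values per gene. Reads were processed with TopHat, Cufflinks and Cuffdiff on build mm10, per the submitters' processing notes, and versions are not given in the sources used here. FPKM depends on gene models, on the division of reads between copies and on the total over all genes.

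Of 23845 rows, 758 belonged to symbols at several places and were left out. Symbols turned into dates (23) were never named. Starts were raised by 1, since 76.6% of 11991 genes sharing their end with RefSeq start 1 base before it. Ratios are log2 of FPKM + 1, with pandas 2.3.3. With 1 library a side no test was made. Genes named are the 15 highest and 15 lowest ratios, the 3 largest in each of the gene lists, and a set of islet and ageing genes; others given as values were chosen after their values were seen, and a gene of the first rule is not reported here. The members compared and the gene lists were chosen with earlier results of these data known. Promoters came from RefSeq (GRCm38.p6). The ratio calculation was checked on simulated data. Alternatives were pseudocounts of 0.1 and 5, no minimum or 10 FPKM, 2 rescalings, removal of trends with expression or with length and GC content, and all rows.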

Additional observations from a re-analysis of the deposited data

Results flagged for a closer look

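In 3 genes past 2-fold in the nulliparous IKO pair, the nulliparous WT pair lay past 2-fold in the opposite direction. Tgoln2 had a log2 ratio of 1.24 in IKO and of -3.0 in WT. Atp6v0c-ps2, a pseudogene, had -1.03 in IKO and 5.38 in WT. The predicted gene 1700084C01Rik had 1.66 in IKO and -1.11 in WT. The difference was not tested in any of them, since each group held 1 library. The nulliparous 12-month WT library stood apart from the others, with a median size of the log2 ratio of 0.278 to 3-month WT, against 0.0903 in the IKO pair. Tgoln2 and Atp6v0c-ps2 have close copies among which reads can be divided in more than 1 way.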

How the results depend on the processing

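With a pseudocount of 5, 5 genes were 2-fold higher and 1 lower, and the delta cell marker median was -0.47. With no minimum, 20 of 15844 genes were higher and 14 lower. With a minimum of 10 FPKM, 5 of 5744 genes were lower. The other 17 alternative counts stayed within 1.5 times of the 12 higher and 9 lower genes. Of the alternative list medians, 394 moved by less than 0.113, the SD over genes of the log2 ratio between both 3-month libraries. That SD is of single genes and includes the difference between genotypes, so it does not measure replicate spread, which does not exist here. Many list medians were smaller than it in size, so a move below it can take a median across 0. The ATF4 list median ran from 0.25 to 0.28 over the alternatives. Some of the list medians within 0.04 of 0 crossed it in some alternatives, and no list median further from 0 did. For named genes, 1468 alternative values moved by less than that SD and 68 by more. Leaving out small RNAs, ribosomal RNA, pseudogenes and predicted genes, and setting the median of all genes to 0, were chosen after seeing the data. No paired analysis was possible because each group holds 1 library and the labels give no replicate number. With 1 library a group, no value has a replicate error, and with no read counts the counting error of genes near 5 FPKM is unknown.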
